A study of Mus musculus with 12 samples.

Results

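Sensory neurons of the dorsal root ganglia release neuropeptides from their endings in the skin and the spinal cord. The members described here are the genes for these peptides: Calca and Calcb (the 2 calcitonin gene-related peptides, CGRP), Tac1 (substance P and neurokinin A), Nmb (neuromedin B), Adcyap1 (PACAP), Gal (galanin), Vip (vasoactive intestinal peptide), Cartpt (CART) and Npy (neuropeptide Y). They were chosen by gene symbol. Of the 9 genes, 8 were found among the 15322 genes of the deposited table and all 8 passed the filter on low values, which left 15194 genes. Npy is not analysed here.

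RNA was sequenced from lumbar ganglia (L3 to L5) of wild-type mouse pups at postnatal day 9. Dams with their pups had been given either limited bedding, used as an early-life stress, or control bedding from postnatal day 2 to day 9. The groups were stress females, stress males, control females and control males, with 3 libraries each, so 6 stress libraries were set against 6 control libraries. All groups shared the genotype, tissue and age. The mouse strain, the litter of each pup and any pooling of pups are not given in the labels, so p-values measure only the spread between these libraries, which may be technical.

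Neuropeptides are made as longer precursors that convertases cut in dense core vesicles, and they act on G protein-coupled receptors. CGRP and substance P are the classical peptides of peptidergic nociceptors, the pain-sensing neurons that widen blood vessels and signal to the dorsal horn. In rodents, ganglion neurons hold little galanin and vasoactive intestinal peptide until the peripheral nerve is injured, when both are known to increase.

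Calca and Calcb are neighbours on mouse chromosome 7 (build mm10). Calca lies on the minus strand at chr7:114631478-114636357 and Calcb on the plus strand at chr7:114718643-114723365, with 82285 bases between them. The coding sequences of transcripts Calca-201 and Calcb-201 (GENCODE M21) were identical at 85.3% of aligned bases. The most similar 111 bases, printed to show how far reads of the gene pair can be told apart, matched at 106 positions, and capitals mark the bases that differ. In Calca these bases lie within chr7:114632499-114634477 on the minus strand, and in Calcb within chr7:114720205-114722075 on the plus strand, each across an intron.
Calca: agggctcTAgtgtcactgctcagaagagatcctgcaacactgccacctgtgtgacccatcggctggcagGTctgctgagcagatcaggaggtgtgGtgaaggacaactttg
Calcb: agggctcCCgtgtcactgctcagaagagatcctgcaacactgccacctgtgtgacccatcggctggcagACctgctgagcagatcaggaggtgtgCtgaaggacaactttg
Stretches of 31 bases that occur in both genes made up 1.97% of the stretches in the 7 annotated Calca transcripts and 2.62% of those in the 3 Calcb transcripts. Reads from these stretches could be split between the genes in counting. The Calca gene also encodes calcitonin through another splice form, and the gene-level values do not separate it from CGRP. On the same build Nmb lies at chr7:80902227-80905076 (minus strand), Tac1 at chr6:7554879-7565834 (plus), Adcyap1 at chr17:93199017-93206537 (plus), Gal at chr19:3409915-3414544 (minus), Vip at chr10:5639218-5647617 (plus) and Cartpt at chr13:99898489-99901091 (minus).

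The RefSeq promoter table (GRCm38.p6) held windows of 300 bases, from 250 before to 50 after a start, for 8 of the 9 genes, Npy included and Calcb not. Of the members that changed, Calca (chr7:114636308-114636607, minus strand), Nmb (chr7:80905013-80905312, minus strand) and Vip (chr10:5638968-5639267, plus strand) are printed, and Cartpt (chr13:99900634-99900933, minus strand) is printed because it held the whole cAMP response element. Capitals mark matches to the searched motifs.
Calca: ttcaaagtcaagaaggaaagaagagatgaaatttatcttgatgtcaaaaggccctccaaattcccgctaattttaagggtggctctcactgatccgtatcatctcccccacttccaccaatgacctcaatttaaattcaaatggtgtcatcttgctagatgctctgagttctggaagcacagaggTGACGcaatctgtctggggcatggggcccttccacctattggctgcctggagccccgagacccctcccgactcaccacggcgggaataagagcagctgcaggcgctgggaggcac
Nmb: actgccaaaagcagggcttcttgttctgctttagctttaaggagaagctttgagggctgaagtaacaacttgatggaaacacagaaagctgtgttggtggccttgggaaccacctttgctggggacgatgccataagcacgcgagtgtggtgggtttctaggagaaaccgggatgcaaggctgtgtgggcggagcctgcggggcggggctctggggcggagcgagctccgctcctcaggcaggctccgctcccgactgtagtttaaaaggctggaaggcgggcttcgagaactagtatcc
Vip: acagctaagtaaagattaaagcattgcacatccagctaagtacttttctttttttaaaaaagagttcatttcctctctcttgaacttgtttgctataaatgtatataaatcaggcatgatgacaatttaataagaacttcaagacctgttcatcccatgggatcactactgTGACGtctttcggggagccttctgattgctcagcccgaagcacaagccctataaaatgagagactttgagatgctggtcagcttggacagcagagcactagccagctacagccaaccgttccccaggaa
Cartpt: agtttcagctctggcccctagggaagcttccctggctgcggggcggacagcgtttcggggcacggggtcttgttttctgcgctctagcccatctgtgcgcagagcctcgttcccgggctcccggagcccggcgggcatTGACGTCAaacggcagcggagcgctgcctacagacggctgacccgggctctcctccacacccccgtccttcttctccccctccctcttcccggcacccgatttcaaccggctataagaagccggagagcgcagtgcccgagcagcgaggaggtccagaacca
The motifs were searched on both strands. The whole cAMP response element, TGACGTCA, was in 1 of the 8 genes and in 1.79% of 32851 promoters. Its half-site TGACG, which the whole element contains, was in 6 of the 8 genes (Calca, Tac1, Vip, Cartpt, Adcyap1 and Gal) and in 20.8% of promoters. The half-site began 65 bases before the start in Calca and 79 bases before it in Vip. The E-box CACGTG was in 1 gene, Tac1, and in 7.15% of promoters, and the AP-1 motif TGANTCA was in 0 of the 8 genes and in 7.81% of promoters. Calca fell and Vip rose, and both windows hold the half-site; Nmb fell and its window holds none of the motifs.

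Values are normalized counts, that is, counts that the authors scaled between libraries. Low values clustered near multiples of the value of 1 read, in 27.6% to 65.4% of low values by stress library and in 72.4% to 86.1% by control library (within 0.1 of a step). That was under the 95% needed to recover reads, and the depth estimated from it was 16484800 to 27030700 reads in 11 libraries and uncertain in stress female replicate 2. The sensory ganglion label held: Avil, a marker of sensory ganglion neurons, averaged 21685 ± 1015 normalized counts in stress and 20944 ± 801 in control libraries (SD, n = 6 each), and Prph (peripherin) 54369.8 ± 2913 in stress and 53185 ± 1617 in control.

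Across the 8 genes, levels per kilobase of merged exons spanned a wide range in stress ganglia. Merged exons take in every annotated transcript, 3399 bases for Tac1 and 793 for Nmb, so the order of genes depends on these lengths. Before this division, Tac1 (4218 ± 132 normalized counts) stood above Nmb (1312 ± 74.6) in control libraries. Adcyap1 (2673 ± 156) likewise stood above Calcb (1236 ± 34.3) there (SD, n = 6 each). Calca was highest, at 7331 ± 444 normalized counts per kilobase in stress and 10243 ± 240 in control libraries (SD, n = 6 each). In stress libraries Tac1 (1165 ± 103 per kilobase) and Nmb (1141 ± 142) came next and did not differ beyond their spread, while in control libraries Nmb (1654 ± 94.1) stood above Tac1 (1241 ± 39.0). Adcyap1 (700.04 ± 48.3) stood above Calcb (579 ± 34.5) in stress libraries, whereas in control libraries Calcb (978 ± 27.1) stood above Adcyap1 (708 ± 41.2). Gal, Cartpt and Vip followed in both, at 402 ± 23.6, 169 ± 36.5 and 12.8 ± 3.71 per kilobase in stress libraries and at 356 ± 27.3, 149 ± 7.73 and 4.78 ± 2.09 in control libraries.

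Limited bedding was accompanied by lower levels of 3 of the 8 peptide genes and a higher level of 1 of them. Both CGRP genes and Nmb fell, Vip rose, and Tac1, Adcyap1, Gal and Cartpt did not pass the test (limma on log2 values, Benjamini-Hochberg adjusted p under 0.05 over all genes). Of all tested genes 26.2% were called, 13.4% lower and 12.8% higher. For the same 4 genes the 6 stress libraries did not overlap the 6 control libraries, as was true of 10.9% of all tested genes (5.21% with stress higher, 5.73% with stress lower). In bulk tissue, fewer cells of a type and less RNA per cell cannot be told apart.

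**Figure D1:**
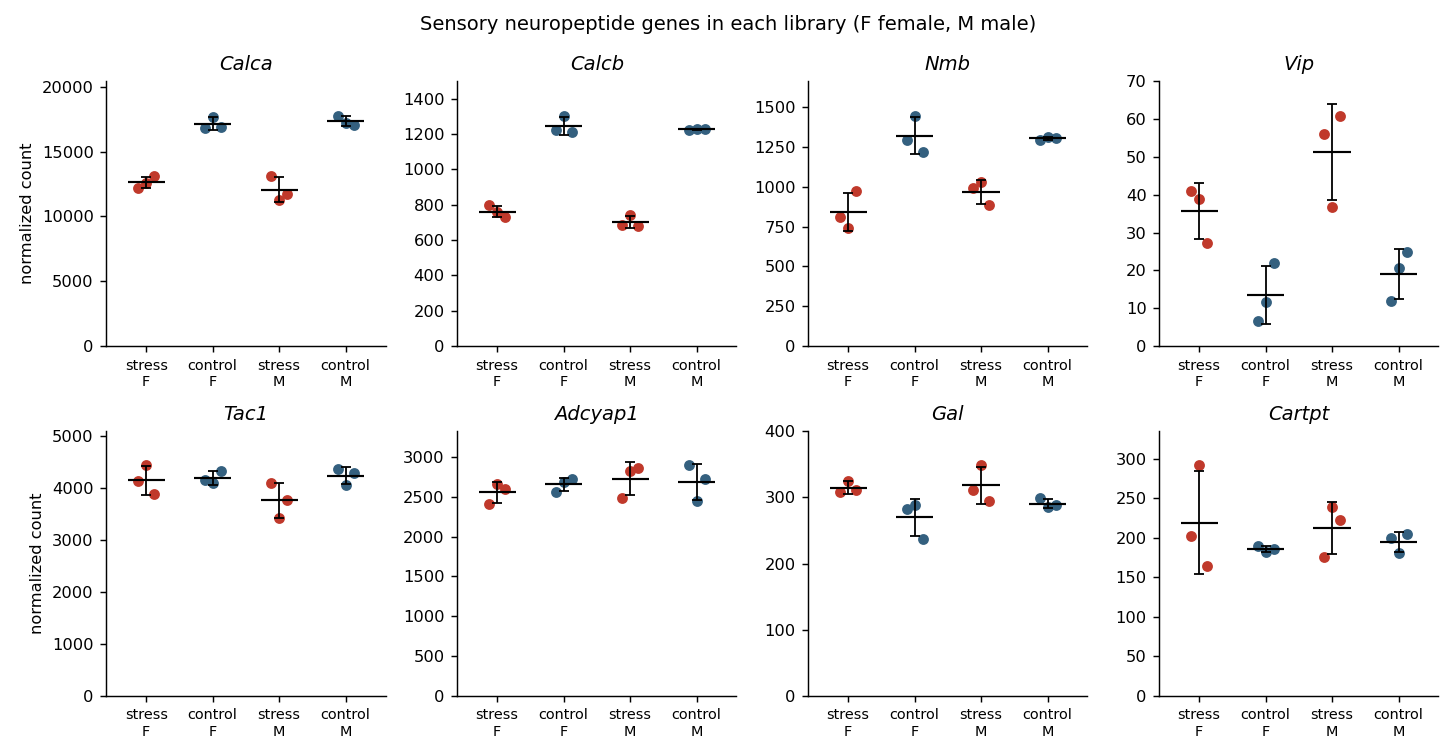
Normalized counts (y axis, from 0) of the 8 peptide genes in each of the 12 libraries, grouped by treatment and sex on the x axis; bars are the mean and SD of 3 libraries. Stress points lie below all control points in Calca, Calcb and Nmb and above them in Vip. The groups overlap in Tac1, Adcyap1, Cartpt and Gal; in Gal only 1 stress point, at 295, lies below the highest control point, at 299.

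Calca, the main CGRP gene of sensory neurons, stood at 12217, 12595 and 13082 normalized counts in stress females, against 16849, 17708 and 16906 in control females. In stress males it stood at 13157, 11263 and 11763, against 17781, 17213 and 17035 in control males. Every stress library was below every control library, and the coefficient of variation was 6.05% over stress libraries and 2.35% over control libraries. The log2 fold change was -0.48 ± 0.04 (SE, limma, adjusted p = 1.07e-06), which means that the fitted level fell by 28.5%. It was -0.44 in females (adjusted p = 0.000282) and -0.53 in males (adjusted p = 4.47e-05).

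Calcb encodes the second CGRP, which differs from the first by a few residues and which enteric neurons also make. It stood at 796, 758 and 729 normalized counts in stress females, against 1222, 1305 and 1211 in control females. Stress males were at 686, 742 and 682, against 1222, 1228 and 1229 in control males. The highest stress library, at 796, was far below the lowest control library, at 1211. The log2 fold change was -0.76 ± 0.05 (SE, limma, adjusted p = 2.72e-08), the 7th lowest p among all tested genes, at -0.71 in females and -0.80 in males.

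Calcb fell further than Calca. The log2 ratio of Calcb to Calca, taken within a library on values plus 1, averaged -4.07 ± 0.13 in stress and -3.80 ± 0.03 in control libraries (SD, n = 6 each). As a linear ratio, Calcb was at 5.94% of Calca in stress and 7.17% in control. The difference of -0.27 had a p of 0.005 in an exact two-sided permutation test of the treatment labels within each sex, the smallest that its 400 relabellings can give (adjusted p = 0.005 over the 2 ratios tested). It was -0.27 in females and -0.28 in males. The stress libraries were spread more widely, from -4.26 to -3.92, than the control libraries, from -3.86 to -3.76, and the groups did not overlap.

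Tac1, the precursor of substance P and neurokinin A, did not follow Calca. Its levels were 4136, 4441 and 3884 normalized counts in stress females, against 4149, 4096 and 4341 in control females. In stress males they were 4101, 3424 and 3768, against 4374, 4062 and 4285 in control males. The groups overlapped in both sexes. The log2 fold change was -0.10 ± 0.05 (SE; 95% interval -0.20 to 0.01; limma, adjusted p = 0.161), so a fall of up to 0.20 on the log2 scale lies within its interval. In males it was -0.17 (adjusted p = 0.0942), and without stress male replicate 1 it passed the test there (-0.24, adjusted p = 0.0304).

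Relative to Calca, Tac1 was higher in stress. The log2 ratio of Tac1 to Calca averaged -1.64 ± 0.09 in stress and -2.03 ± 0.06 in control libraries (SD, n = 6 each), a difference of 0.39 (exact two-sided permutation p = 0.005, the smallest possible; adjusted p = 0.005 over the 2 ratios). Every stress library, from -1.75 to -1.50, was above every control library, from -2.11 to -1.96. The difference was 0.43 in females and 0.35 in males.

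**Figure D2:**
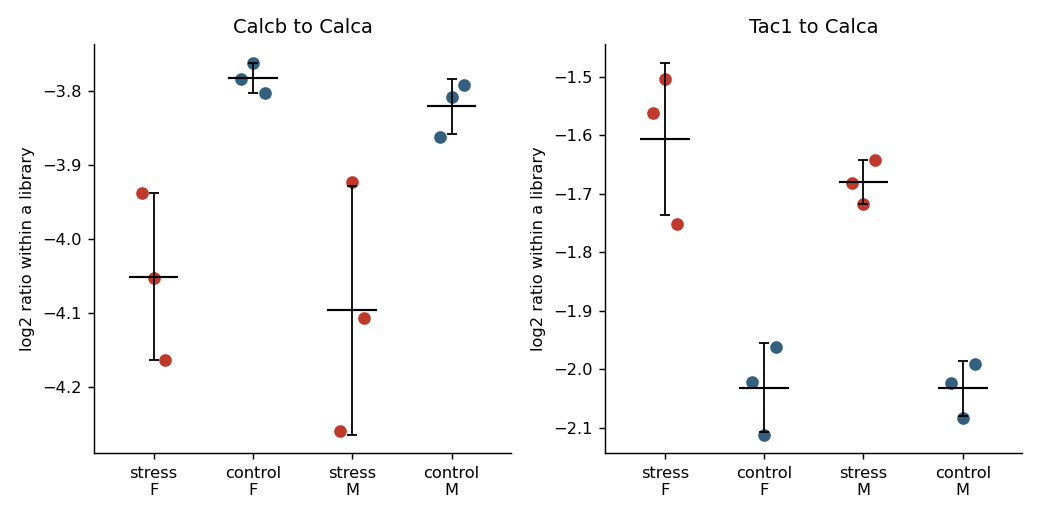
Log2 ratio of 2 peptide genes within each library (y axis), by treatment and sex (x axis), with the mean and SD of 3 libraries. Calcb to Calca is lower in all 6 stress libraries (-4.26 to -3.92) than in all 6 control libraries, and Tac1 to Calca is higher in all 6 stress libraries (-1.75 to -1.50).

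Nmb encodes neuromedin B, a bombesin-like peptide of sensory neurons with roles in itch and pain in mice. Its levels were 808, 743 and 970.2 normalized counts in stress females, against 1296, 1446 and 1216 in control females. In stress males they were 989.5, 1031 and 886, against 1292, 1312 and 1309 in control males. No stress library reached the lowest control library. The log2 fold change was -0.54 ± 0.07 (SE, limma, adjusted p = 1.95e-05), at -0.66 in females (adjusted p = 0.000372) and -0.43 in males (adjusted p = 0.00501). The difference between the sexes, 0.22 ± 0.13 (male effect minus female effect, SE), did not pass the test (limma adjusted p = 0.656).

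Vip, whose peptide relaxes smooth muscle and widens vessels, was the gene of lowest level in the set and the only one of the 8 that rose. Its levels were 40.9, 38.9 and 27.2 normalized counts in stress females, against 6.71, 11.8 and 21.9 in control females. In stress males they were 56.1, 36.9 and 60.9, against 11.9, 20.6 and 24.7 in control males. The lowest stress library, at 27.2, was just above the highest control library, at 24.7, so the groups were separate by a narrow margin. By the estimated step of 1 read, these levels correspond to about 30 to 74 reads in 5 stress libraries, leaving out stress female replicate 2 whose step is uncertain, and to about 5 to 26 reads in control libraries.

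Over both sexes the log2 fold change of Vip was 1.44 ± 0.28 on the log2(value + 1) scale (SE, 95% interval 0.84 to 2.03, limma, adjusted p = 0.00142). The added 1 narrows ratios of low values. The authors' deposited log2 fold change of Vip, 1.40 ± 0.28 (SE), comes from a different fit, so it cannot show by how much. In the limma fit, the effects of Vip in females (1.46, adjusted p = 0.0266) and males (1.41, adjusted p = 0.0248) each rested on 3 low values a group. In females the call was lost without control female replicate 1 (1.08, adjusted p = 0.124), control female replicate 2 (1.44, adjusted p = 0.0778), stress female replicate 1 (1.36, adjusted p = 0.0990) or stress female replicate 2 (1.39, adjusted p = 0.0695). In males it was lost without control male replicate 1 (1.12, adjusted p = 0.102), control male replicate 2 (1.49, adjusted p = 0.0541), stress male replicate 1 (1.33, adjusted p = 0.0676) or stress male replicate 3 (1.27, adjusted p = 0.0909). Over both sexes it was kept in all 12 such fits, with log2 fold changes of 1.24 to 1.64.

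Gal, the galanin precursor, stood at 308, 326 and 311 normalized counts in stress females, against 283, 289 and 238 in control females. Stress males were at 311, 349 and 295, against 299, 285 and 288 in control males. The female groups did not overlap, as in 30.7% of all tested genes with 3 libraries a group (14.8% with stress higher), and the male groups did. Its log2 fold change of 0.18 ± 0.07 (SE; 95% interval 0.02 to 0.33) did not pass the test over all genes (limma adjusted p = 0.0869).

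Adcyap1 encodes PACAP, a peptide close in sequence to vasoactive intestinal peptide, and had levels of 2410 to 2867 normalized counts in stress and 2443 to 2897 in control libraries. Its log2 fold change was -0.02 ± 0.05 (SE; 95% interval -0.12 to 0.09; limma, adjusted p = 0.848). Cartpt, the precursor of CART, ranged from 164 to 292 normalized counts in stress and from 180.2 to 204 in control libraries. The coefficient of variation of Cartpt was 21.6% in stress and 5.18% in control, and its log2 fold change was 0.15 ± 0.12 (SE; 95% interval -0.10 to 0.41; adjusted p = 0.381).

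**Figure D3:**
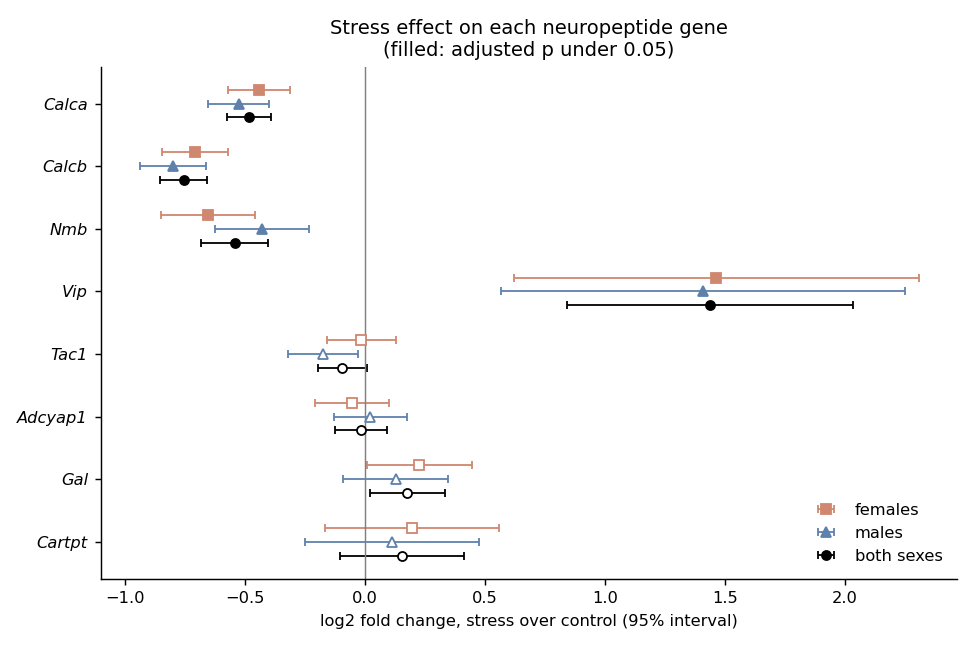
Log2 fold change of stress over control with its 95% interval (x axis) for each peptide gene (y axis), in females, in males and over both sexes; filled symbols passed adjusted p under 0.05. The intervals of females and males overlap for each gene, with Vip far to the right at 1.44 and Calcb farthest to the left at -0.76.

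The same 3 falls and 1 rise were called in females and in males, where 11.0% (4.96% higher, 6.07% lower) and 15.8% (7.71% higher, 8.11% lower) of all tested genes were called. For none of the peptide genes did the effect of limited bedding depend on sex, and none stood higher or lower in males than in females over both treatments, by limma at an adjusted p under 0.05 or at an unadjusted p under 0.05. Among all tested genes 0 were called for a sex-dependent effect and 15 for the sex contrast, or 0.0987% (0.0395% higher and 0.0592% lower in males), and 1260 and 1437 had an unadjusted p under 0.05. The widest interval for a sex difference in effect was that of Vip, from -1.25 to 1.14 on the log2 scale. The authors' deposited table had 4 of the 8 genes past an adjusted p of 0.05, the 4 called here with the same signs, as it had 26.7% of all its genes. It gave Vip a log2 fold change of 1.40 ± 0.28 (SE) and Gal one of 0.18 ± 0.08 (adjusted p = 0.0970).

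**Figure D4:**
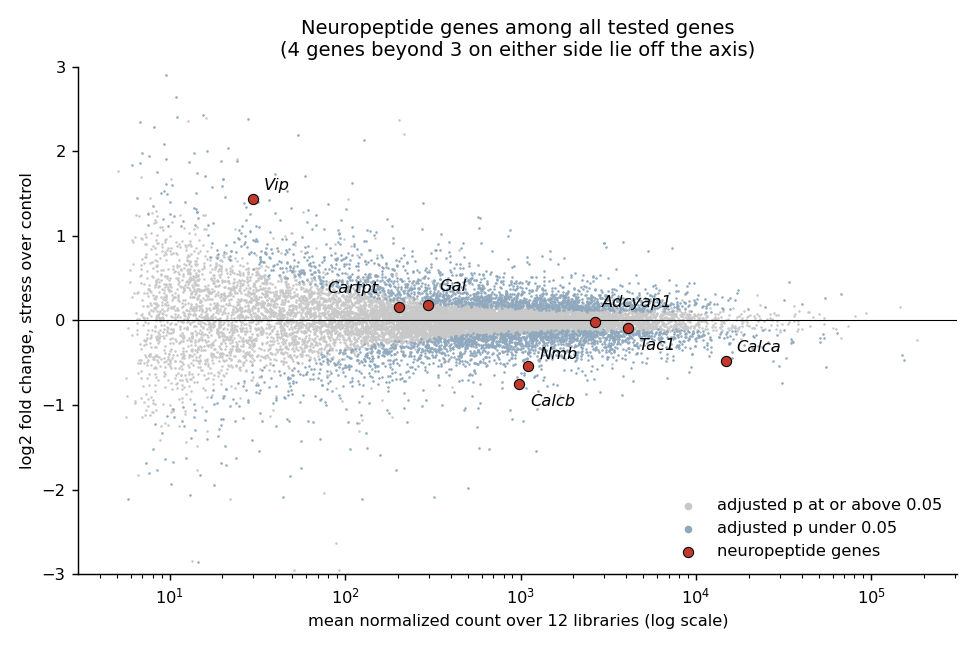
Mean normalized count over 12 libraries (x axis, log scale) and log2 fold change of stress over control (y axis) of the tested genes, with the 8 peptide genes in red. Calca lies at high abundance with a log2 fold change of -0.48, Vip at low abundance with 1.44, and 4 genes lie outside the plotted range.

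Other RNA differed between the treatments beside these genes. Pan-neuronal markers had 4 of 20 genes higher and 6 lower, where 12.8% and 13.4% of all tested genes were. Their median was -0.04 on the log2 scale, against 0.01 for all tested genes. Their summed level was 438461 to 476316 normalized counts in stress and 500247 to 526100 in control libraries. Most of that gap was the neurofilament gene Nefl, at 128298 ± 7631 in stress and 170260 ± 5063 in control (SD, n = 6 each). The other 19 markers summed to 310289 to 348801 in stress and 333861 to 348377 in control libraries, which overlap. With each library scaled to the geometric mean of these 20 markers, a choice made after the data were seen, the log2 fold changes were -0.43 for Calca, -0.71 for Calcb, -0.49 for Nmb and 1.48 for Vip, the same 4 genes were called, and the median of all genes moved by 0.05. Red blood cell markers had 9 of 13 tested genes higher and 2 lower, where 12.8% and 13.4% of all tested genes were. Their summed levels were 14677 to 20401 in stress and 14990.2 to 16277 in control libraries. Much of these sums came from the 2 lower genes. Ank1 was at 7460 ± 637 in stress and 8412 ± 425 in control, and Tfrc at 2078 ± 686 and 3593 ± 262 (SD, n = 6 each). Of the 9 higher genes, Slc4a1 was at 213 ± 114 in stress and 44.4 ± 15.3 in control, and Hbb-bt at 823 ± 263 and 346 ± 72.0. A score of 9 non-globin markers of this list, a mean log2 value, was 5.64 to 7.38 in stress and 5.02 to 5.45 in control libraries, so it did not overlap. With that score as a covariate, although it does not overlap between the treatments, Calca (-0.46, limma adjusted p = 0.0129) and Calcb (-0.80, adjusted p = 0.000815) kept their calls, and Nmb (-0.34, adjusted p = 0.149) and Vip (1.01, adjusted p = 0.385) lost theirs; 404 of all genes were then called, or 2.66%.

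Markers of cells that could add peptide RNA to a ganglion sample were also read. Of sympathetic neuron markers, 8 of 15 were in the table, and summed to 758 to 985 normalized counts in stress and 856 to 1095 in control libraries; Insm1 rose, and Chrnb4 and Th fell, while the defining genes Dbh, Slc6a2 and Hand2 are not analysed here. Of motor neuron markers, 4 of 10 were in the table, at 7940 to 9587 in stress and 7484 to 8304 in control, with Isl2 and Ache higher. Of enteric neuron markers, 6 of 10 were in the table, at 29639 to 35340 in stress and 33313 to 36356 in control, and 2 were higher and 2 lower. None of the markers in the table was at 0 in every library, and sensory neurons express several of them. Immune markers (1 of 13 higher, 2 lower) summed to 963 to 1364 normalized counts in stress and 1574 to 2006 in control. The 2 lower ones were the MHC class II genes Cd74, at 125 ± 40.5 in stress and 514 ± 57.3 in control, and H2-Aa, at 47.0 ± 10.6 in stress and 204 ± 22.1 in control (SD, n = 6 each). The other 11 immune markers summed to 843 to 1154 in stress and 883 to 1185 in control libraries, which overlap. Satellite glia and Schwann cell markers (6 of 12 lower) summed to 308642 to 416585 in stress and 310599 to 468128 in control. The part of these cells in the results was not tested. Beside the counts of called markers, 12.8% of all tested genes were called higher and 13.4% lower.

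Markers of peptidergic nociceptors other than Calca and Tac1 moved in both directions. Of 16 tested markers 3 were higher and 6 lower, where 12.8% and 13.4% of all tested genes were. Their median was -0.06 on the log2 scale, against 0.01 for all tested genes. Gfra3, the artemin receptor, rose by 0.47 ± 0.05 (SE, limma, adjusted p = 4.23e-06). The heat-gated channel Trpv1 fell by 0.32, and the prostacyclin receptor Ptgir fell by 0.26. Nefh and Dcn, a neurofilament and a matrix proteoglycan that the list holds although other cells express them widely, fell by 0.55 and 0.44, while Ly6a rose by 0.70. The summed level of the list was 69573 to 82007 normalized counts in stress and 90553 to 99583 in control libraries, but without Nefh the groups overlapped, at 28703 to 32449 in stress and 30458 to 31508 in control.

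CGRP acts on a receptor made of the calcitonin receptor-like protein and a RAMP accessory protein. Ramp3, which turns that protein into an adrenomedullin receptor, rose to 147 ± 20.6 normalized counts in stress, against 78.7 ± 13.8 in control libraries (SD, n = 6 each), and its fold change on the log2 scale was 0.90 ± 0.13 (SE; adjusted p by limma = 0.000118). Calcrl itself was at 301 ± 49.3 in stress and 271 ± 31.4 in control (log2 fold change 0.14, adjusted p = 0.397), and Ramp1, the partner for CGRP, at 46.6 ± 11.4 in stress and 49.6 ± 8.34 in control (-0.10, adjusted p = 0.715). Of the 5 tested genes of this list, 1 was higher and 0 lower, where 12.8% and 13.4% of all genes were. The lowest of the list, Ramp2, was at -0.24 (adjusted p = 0.0732 by limma).

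Receptors of the other peptides had 1 of 9 tested genes higher and 1 lower, a share near that of all genes. Npy1r, a receptor of neuropeptide Y on peptidergic neurons, rose by 0.19 ± 0.06 (SE, limma, adjusted p = 0.0358), and Npy2r, a receptor of the same peptide, fell by 0.30 ± 0.07 (adjusted p = 0.00335). Tacr1, the substance P receptor, was at 32.5 ± 5.51 normalized counts in stress and 25.1 ± 6.67 in control libraries (SD, n = 6 each) and did not pass the test (adjusted p = 0.172).

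The enzymes that cut and trim precursors had 1 of 11 genes higher and 3 lower, where 12.8% and 13.4% of all tested genes were. The 2 main neuronal convertases went opposite ways: Pcsk2 rose to 8419 ± 693 normalized counts in stress, against 7249 ± 255 in control libraries, while Pcsk1 fell to 820.3 ± 45.0, against 956 ± 87.8 in control (SD, n = 6 each). Their log2 fold changes were 0.21 ± 0.04 and -0.22 ± 0.06 (SE, limma, adjusted p = 0.00161 and 0.0134). Pcsk5 fell by 0.22 and Cpz, a matrix carboxypeptidase, fell to 53.2 ± 21.8 normalized counts, against 102 ± 19.7 in control (SD, n = 6 each). Cpe, which trims basic residues, and Pam, which amidates peptides including CGRP and substance P, were at 0.11 ± 0.04 (adjusted p = 0.0515) and -0.13 ± 0.05 (adjusted p = 0.0559).

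Proteins of dense core vesicles had 7 of 20 genes lower and 1 higher, where 13.4% and 12.8% of all tested genes were. The median of their log2 fold changes was -0.09, against 0.01 for all tested genes. Rph3a, a Rab effector of vesicle release, fell by 0.68 ± 0.05 (SE, limma, adjusted p = 2.40e-07), to 5271 ± 373.6 normalized counts in stress, against 8465 ± 460.0 in control libraries (SD, n = 6 each). The granin Scg3 fell by 0.55 ± 0.05, to 7585 ± 760.5, against 11105 ± 346 in control. Cadps, which primes these vesicles, fell by 0.18, and the vesicle membrane protein Ptprn fell by 0.16. Scg5, the chaperone of the convertase Pcsk2, rose by 0.24 ± 0.06 (adjusted p = 0.00822).

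Peptidases that degrade neuropeptides had 3 of 10 genes higher and 3 lower, where 12.8% and 13.4% of all tested genes were. Ece2, an endothelin-converting enzyme of vesicles, fell by 1.03 ± 0.08 (SE, limma, adjusted p = 2.25e-07), to 377 ± 56.3 normalized counts in stress, against 768 ± 70.2 in control libraries (SD, n = 6 each). Ece1, which cleaves CGRP and substance P in endosomes, fell by 0.30 and the aminopeptidase Npepps fell by 0.19. Nln (neurolysin, which cuts neurotensin) rose by 0.57 ± 0.05, Ace by 0.45 and Ide by 0.15.

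Among other neuropeptide genes 14 of 45 were tested, and 4 were lower and 0 higher, where 13.4% and 12.8% of all tested genes were. The median of the log2 fold changes was -0.02, against 0.01 for all tested genes. Nppb and Sst, peptides of itch neurons, fell to 4.31 ± 1.82 and 3.30 ± 2.96 normalized counts in stress, against 105 ± 19.1 and 60.6 ± 19.5 in control libraries (SD, n = 6 each). Nts (neurotensin) fell by 0.69 ± 0.16 (SE, limma, adjusted p = 0.00501) and Penk, the enkephalin precursor, fell by 0.62 ± 0.16 (adjusted p = 0.00942).

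**Figure D5:**
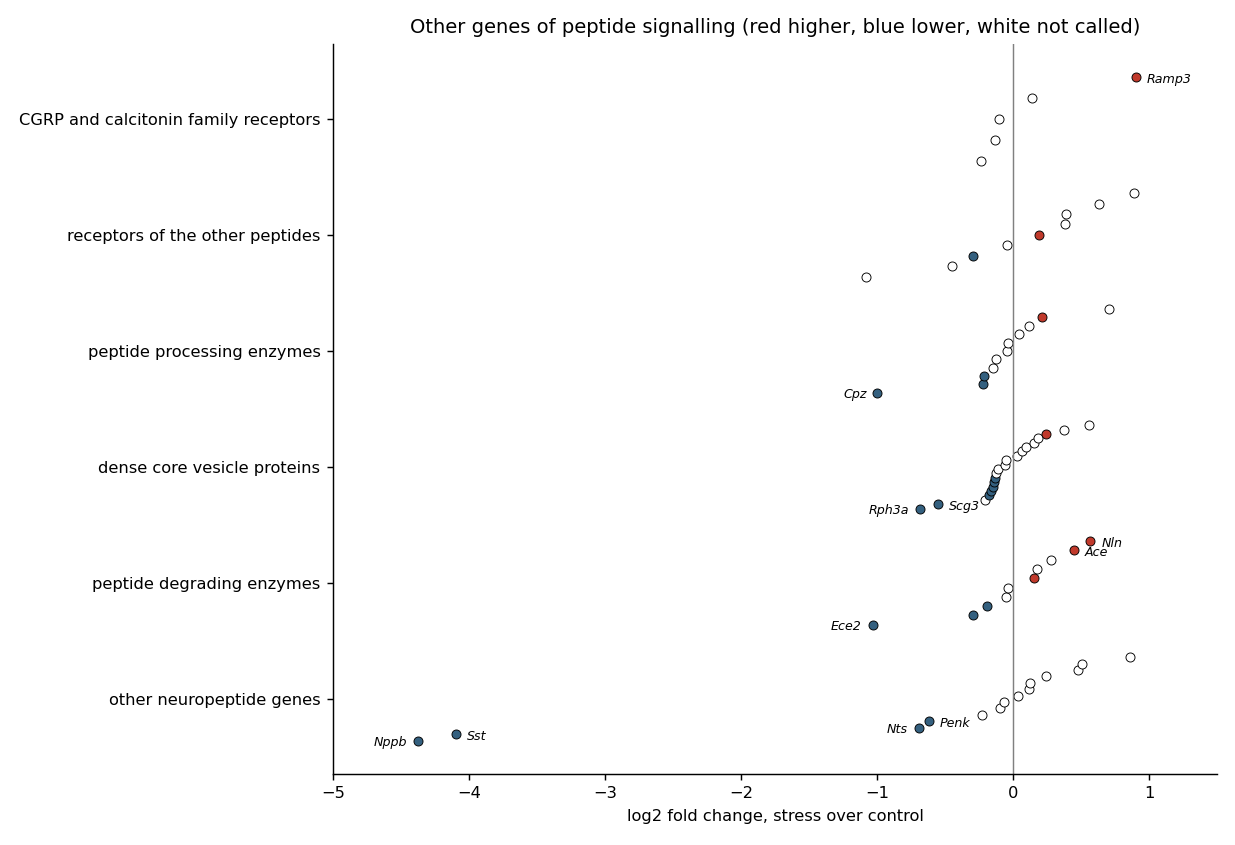
Log2 fold change of stress over control (x axis) of each tested gene in 6 lists of peptide signalling (y axis); red points passed adjusted p under 0.05 as higher, blue as lower, and white did not pass. Ramp3 stands to the right among CGRP receptors (0.90), and Nppb and Sst far to the left among other neuropeptides.

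Genes known to increase after nerve injury, apart from Gal, Vip and Npy, had 8 of 14 tested members higher and 3 lower. Among all tested genes 12.8% were called higher and 13.4% lower. The median change of the list was 0.24 on the log2 scale, against 0.01 for all tested genes. Gap43 of growing axons rose by 0.31 ± 0.04 (SE, limma, adjusted p = 3.71e-05), the tubulin gene Tubb2b rose by 0.45 and Stmn4 by 0.50. Reg3b stood at 20.1 ± 5.29 normalized counts in stress and 0.931 ± 1.498 in control libraries (SD, n = 6 each). Gadd45a fell by 0.57, Nts by 0.69 and Hspb1 by 0.13. Atf3, Jun and Sema6a were not called. Their log2 fold changes were 0.22, 0.06 and 0.04 (limma, adjusted p = 0.267, 0.213 and 0.710).

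Some genes followed a peptide gene from library to library after the mean of each group was taken out, over 12 libraries and 11675 other genes for Calca and Tac1 and 11676 for Vip. Closest to Calca were Rn45s, a ribosomal RNA precursor present in many copies, Ppp5c and Zfp651, with Pearson r of 0.96, 0.96 and 0.95. Closest to Tac1 were Mrpl45, Ccnc and Amz2, with r of 0.95, 0.95 and 0.94. Closest to Vip were Rab15, Ranbp9 and Dgkb, with r of 0.93, 0.93 and 0.92. These are the highest of all compared values from few libraries that share scaling and depth, and they are given as a description.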

How the data were processed

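The labels' protocols give a strand-keeping library kit. The submitters' processing notes name STAR, Salmon, DESeq2 and mm10, with no version and no role; the annotation is not given in the sources used here. Each library's column in the deposited table is a normalized signal (normalized counts), scaled by the authors. The table also holds the authors' mean, log2 fold change, its standard error, test score and deposited p-values. Whole reads could not be recovered, so no count model was fitted.

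Tested were the genes that reached 10 normalized counts in 3 or more libraries. Their log2(value + 1) was fitted in limma 3.58.1 (R 4.3.3) on 4 group means, with prior variances following expression, and p-values were adjusted over all 15194 genes. The steps were tested on simulated data. Ratios within libraries were tested by exact permutation. Exon lengths are from GENCODE M21, and sequences were aligned with Biopython 1.88. The members and lists were chosen with earlier results of these data known, and list counts leave out the 9 peptide genes. Genes named from a list are called ones, at most 4 of lowest adjusted p a direction. Calcrl, Ramp1, Tacr1, Pam, Cpe, Pcsk1 and Pcsk2 are always named. Avil, Prph, Ramp2, Atf3, Jun, Sema6a and the genes left out of marker sums were named after their values were seen. Part of what this rule selects is not reported here. Likeness was read over genes averaging 100 or more, predicted names left out. Other scalings, pseudocounts, filters, variances, weights, a replicate block, left-out libraries, a red blood cell score and a threshold of 0.01 were tried.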

Additional observations from a re-analysis of the deposited data

Results flagged for a closer look

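Of 20 groups of 6 libraries examined for a library far from the others, 2 held one; chance alone marks about 1 group in 20. Calcb in control female replicate 2 was at 1305 normalized counts, while the next control library was at 1229, so the gap was 0.806 of the range of the 6 control libraries. Without that library the Calcb log2 fold change over both sexes was -0.74 and its call was kept. Gal in control female replicate 3 was at 238 normalized counts, while the next control library was at 283, a gap of 0.744 of the range. Without it the Gal log2 fold change was 0.13 (limma, adjusted p = 0.208).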

How the results depend on the processing

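Over both sexes 4 of the 8 genes were called under every alternative except 1, and in females and males 3 or 4. The exception was the red blood cell score as covariate, under which 2 were called over both sexes, 1 among females (Calcb) and 2 among males; the cause was not tested. Leaving out 1 library in turn gave 4 calls over both sexes and 3 to 4 in each sex. Of 912 alternative values for single genes, 18 lost a call, 1 gained one and 0 turned a called direction. Besides those in the text, Vip in females was not called with 1 prior variance (adjusted p = 0.0520, limma), nor in either sex at a threshold of 0.01, and Calca in females was not called beside the blood score (-0.42, adjusted p = 0.0539, limma), nor was Nmb (-0.46 in females, -0.22 in males). The ratio differences ran from -0.31 to -0.23 for Calcb to Calca and from 0.36 to 0.43 for Tac1 to Calca over the left-out libraries. Same-numbered stress and control libraries had correlations of deviations from -0.02 to 0.15, and 1 of 6 pairs was over 0.1, so the numbers were not taken as pairs; 3 of 6 correlated best with their own number. With the replicate block within sex 4 genes were again called over both sexes and in each sex, and the ratio differences stayed at -0.27 and 0.39, with an exact sign-change p of 0.0312, the smallest that 6 pairs can give. The block could not be fitted to the contrast of males with females. Vip had the lowest counts of the 8 genes, and the effect of depth on its calls was not tested.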
